A study of Rattus norvegicus with 12 samples.

Results

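Fkbp5 and 7 other genes of the glucocorticoid response were examined in rat colon after feeding with high or with normal protein. The 8 genes (Fkbp5, Fkbp4, Nr3c1, Hsd11b1, Tsc22d3, Klf9, Ddit4 and Zbtb16) were those whose array gene name is one of these symbols, and they were read by 10 of the 30367 gene probes. The members were chosen by the diet difference of Fkbp5 on these same arrays, which was among those of smallest p, so the diet values of the 8 genes are a description and carry no test. Of the 8 genes, 7 were among the 10451 genes tested, as they gave signal above background on enough arrays. The samples were 6 arrays from male Wistar rats after 6 weeks on high protein and 6 arrays from male Wistar rats after 6 weeks on normal protein, with a body weight of 180 to 200 g at the start. The labels name no gene alteration or drug in either group and give the tissue as colonic epithelium, from which total RNA was labelled with the dye Cy3. They do not say whether replicates came from separate animals, so p-values measure the spread between these samples.

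Corticosterone, the main glucocorticoid of the rat, binds the glucocorticoid receptor, which a chaperone complex built on Hsp90 holds ready in the cytoplasm, and the bound receptor then acts in the nucleus on genes that it induces or represses. Fkbp5 is one of its most widely induced targets, and its product is itself a co-chaperone that lowers the receptor's affinity for the hormone, which makes it a feedback gene. In the gut the hormone is also made or regenerated locally by enzymes, and it acts on epithelial, stromal and immune cells alike.

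The question put to these data was whether the other glucocorticoid targets moved with Fkbp5. For the 4 induced targets that were measured above background, the 250 bases before a RefSeq gene start (build GRCr8) are shown here 5′ to 3′ along the gene. They are shown because these genes did not share a direction by diet, and no relation of the windows to the diet values was tested. Capitals mark the CCAAT box (CCAAT, or ATTGG on the opposite strand) and the TATA box (TATAAA, or TTTATA on the opposite strand), and the 2 forms of the CCAAT box overlap where CCAATTGG occurs. Fkbp5 lies at chr20:6543556-6543805 on the minus strand, Klf9 at chr1:230126396-230126645 on the plus strand, Ddit4 at chr20:28437038-28437287 on the minus strand and the third of 3 listed starts of Tsc22d3 at chrX:109010035-109010284 on the minus strand.
Fkbp5: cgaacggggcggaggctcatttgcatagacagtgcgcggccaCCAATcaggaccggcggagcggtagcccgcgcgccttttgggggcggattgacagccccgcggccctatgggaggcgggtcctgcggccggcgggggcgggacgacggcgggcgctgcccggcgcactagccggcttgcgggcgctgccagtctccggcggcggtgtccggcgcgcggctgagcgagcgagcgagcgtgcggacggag
Klf9: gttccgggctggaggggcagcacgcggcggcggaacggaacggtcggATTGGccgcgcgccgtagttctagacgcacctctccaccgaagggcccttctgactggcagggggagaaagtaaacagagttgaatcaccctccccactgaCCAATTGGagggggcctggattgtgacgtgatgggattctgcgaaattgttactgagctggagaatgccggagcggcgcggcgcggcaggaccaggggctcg
Ddit4: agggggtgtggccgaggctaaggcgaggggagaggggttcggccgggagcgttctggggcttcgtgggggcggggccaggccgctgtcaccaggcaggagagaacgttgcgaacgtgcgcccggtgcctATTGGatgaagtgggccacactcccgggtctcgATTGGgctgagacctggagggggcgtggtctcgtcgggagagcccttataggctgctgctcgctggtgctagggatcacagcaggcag
Tsc22d3: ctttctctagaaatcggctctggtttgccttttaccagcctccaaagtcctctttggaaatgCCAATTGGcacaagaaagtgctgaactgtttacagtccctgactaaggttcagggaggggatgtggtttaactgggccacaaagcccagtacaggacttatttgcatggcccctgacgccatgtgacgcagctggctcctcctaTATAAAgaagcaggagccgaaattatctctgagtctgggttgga
The share of G and C was 76.0% in the Fkbp5 window, 63.6% in that of Klf9, 67.6% in that of Ddit4 and 49.2% in that of Tsc22d3, against a median of 51.2% over all 33469 windows of this length. The CCAAT box occurred in all 4 windows shown, in 5 of the 9 windows listed for 6 of the 8 genes, and in 34.02% of all windows. The TATA box occurred in the Tsc22d3 window shown and in no other of the 9, against 12.9% of all windows. Neither box occurred at the first or second listed start of Tsc22d3. The full glucocorticoid response element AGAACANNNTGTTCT, which reads the same on both strands, occurred in none of the 9 and in 0.012% of all windows, and a form with 1 of its 12 fixed letters changed occurred in none of the 9 and in 0.161% of all. The half-site AGAACA or TGTTCT, which the full element contains, was also in none of the 9, against 17.5% of all windows. No match says only that these letters are not in this window.

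The arrays had 42.7% to 55.9% of their gene spots flagged good by the scanner software, and the values given here are quantile-normalized log2 intensities, on which a step of 1 is a doubling. Levels of different genes are not set against each other, since each probe has its own brightness. The 12 arrays lay on 3 slides of 4, each with 2 arrays of either diet. In limma no gene of the 10451 passed an adjusted p of 0.05 for diet, and the lowest adjusted p reached was 0.68. Before adjustment 694 genes (6.64%) had a p under 0.05, 383 higher and 311 lower on high protein, a split that became 1128 and 78 when arrays were scaled to their medians and 318 and 481 when they were scaled to their 75th percentiles.

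Fkbp5 had the widest separation between the diets among the 8 genes. On high protein it measured 7.73, 8.29, 8.09, 8.14, 7.97 and 8.44, with a median of 8.11, against 7.36, 7.34, 7.33, 7.65, 7.44 and 7.88, with a median of 7.40, on normal protein. Of the 6 high-protein arrays, 5 were above every normal-protein array, and the groups overlapped through high-protein replicate 1, the lowest of its diet, and normal-protein replicate 6, the highest of its diet. The means were 8.11 ± 0.24 on high protein and 7.50 ± 0.22 on normal protein (SD, n = 6 each), a difference of 0.61 ± 0.13 (SE) or 1.52-fold. Before normalization the spot read 182 to 448 intensity units over its local background on high protein and 51 to 164 on normal protein, and it was flagged good on 12 of 12 arrays. Within slides the difference was 0.66, 0.63 and 0.53 for slides 1, 2 and 3. These values chose the gene, and they do not test it.

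**Figure D1:**
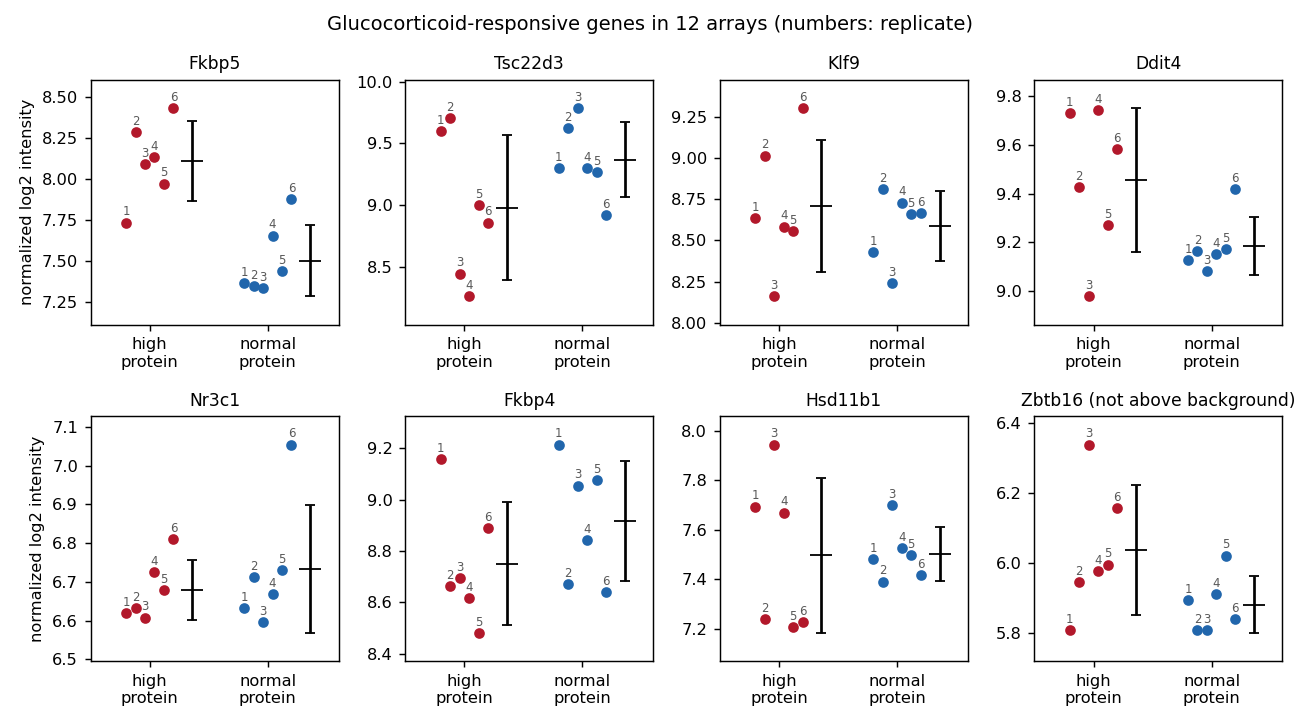
Normalized log2 intensity of the 8 genes on each array, high protein left and normal protein right in each panel, with replicate numbers beside the points and the mean ± SD (n = 6) as a bar. Fkbp5 shows 5 of 6 high-protein arrays above every normal-protein array, Ddit4 shows 4 above and 1 below every normal-protein array, and the scale differs between panels.

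The genes listed for hormone supply, with Hsd11b2 that inactivates the hormone among them, had differences on both sides of 0, from -0.43 to 0.22. Hsd11b1, which regenerates active hormone from its inert form, measured 7.21 to 7.94 with a median of 7.45 on high protein, against 7.39 to 7.70 with a median of 7.49 on normal protein. Its means were 7.50 ± 0.31 and 7.50 ± 0.11 (SD, n = 6 each), a difference of -0.01 ± 0.13 (SE). The high-protein arrays lay on both sides of the others, with 1 above and 3 below every normal-protein array. Hsd11b2, which inactivates the hormone in mineralocorticoid-sensitive epithelia such as the distal colon, ran from 11.54 to 12.30 on high protein and from 10.84 to 12.53 on normal protein, a difference of -0.06 ± 0.25 (SE). Of the 12 genes listed for hormone supply, 6 were tested and none passed for diet (0 of 6 also at an unadjusted p under 0.05), 2 differences were above 0 and the median was -0.03. H6pd, which makes the cofactor that Hsd11b1 needs, differed by 0.16, Nr5a2, a nuclear receptor that drives steroid synthesis in the mouse intestine, by 0.22, Srd5a1, a steroid reductase, by -0.43, and Akr1c14, another steroid reductase, by -0.27. The steroid-synthesis genes Cyp11a1, Cyp11b1, Star and Hsd3b1 were on the array and did not reach the signal needed for testing.

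Nr3c1, the receptor itself, was near the limit of detection. It measured 6.61 to 6.81 with a median of 6.66 on high protein, against 6.60 to 7.05 with a median of 6.69 on normal protein, and no high-protein array lay outside the normal-protein range. The difference was -0.05 ± 0.08 (SE). The probe was flagged good on 3 high-protein and 5 normal-protein arrays, and a second Nr3c1 probe was flagged good on 0 arrays, so the values of the dim arrays are close to background. With plain background subtraction the difference was -0.20 in place of -0.05, and without the 3 arrays of lowest colon position score, described further on, it was 0.02.

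Fkbp4, the co-chaperone that competes with the product of Fkbp5 for the receptor complex and favours hormone binding, lay lower on high protein by about the error of the difference. It measured 8.48 to 9.16 with a median of 8.68 on high protein, against 8.64 to 9.21 with a median of 8.95 on normal protein. Of the high-protein arrays 2 lay below every normal-protein array and the rest within the same range. The means were 8.75 ± 0.24 and 8.92 ± 0.23 (SD, n = 6 each), a difference of -0.17 ± 0.13 (SE). It was below 0 within each slide, at -0.22, -0.10 and -0.17, and shrank to -0.02 with median scaling.

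The differences of the receptor's chaperone machinery were centred near 0. Of 24 listed genes 22 were tested and none passed for diet; at an unadjusted p under 0.05 there was 1, Fkbp5 itself. In this list 12 differences were above 0 and the median was 0.05, beside 51.5% above 0 and a median of 0.01 over all tested genes. Hsp90aa1 and Hsp90ab1, the inducible and constitutive forms of cytosolic Hsp90, differed by 0.04 and -0.05, and the Hsp70-type chaperones Hspa8 and Hspa4 differed by 0.09 and -0.06. Nr3c2, the mineralocorticoid receptor, which binds the same hormone, differed by 0.11 ± 0.13 (SE).

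Among the induced targets, Tsc22d3 was the member whose diet difference lay farthest from that of Fkbp5. Tsc22d3 encodes GILZ, a mediator of the anti-inflammatory action of glucocorticoids. It measured 9.60, 9.70, 8.44, 8.26, 8.998 and 8.86 on high protein, with a median of 8.93, against 9.30, 9.62, 9.79, 9.30, 9.26 and 8.92 on normal protein, with a median of 9.30. No high-protein array lay above the normal-protein range and 3 lay below it. The means were 8.98 ± 0.59 on high protein and 9.36 ± 0.30 on normal protein (SD, n = 6 each), a difference of -0.39 ± 0.24 (SE). By slide the difference was 0.11, -0.53 and -0.74, so its sign was not the same on all slides.

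Klf9 and Ddit4 had differences above 0, and their groups overlapped. Klf9, a transcription factor gene that glucocorticoids and thyroid hormone induce, measured 8.16 to 9.30 with a median of 8.61 on high protein, against 8.24 to 8.81 with a median of 8.66 on normal protein. Of its high-protein arrays 2 were above and 1 was below every normal-protein array, and the difference of 0.12 ± 0.17 (SE) became 0.49, 0.28 and -0.41 within the 3 slides. Ddit4, whose product REDD1 restrains mTORC1 and which stress and hypoxia also induce, measured 8.98 to 9.74 with a median of 9.504 on high protein, against 9.08 to 9.42 with a median of 9.16 on normal protein. Of its high-protein arrays 4 were above every normal-protein array and 1 was below. The means were 9.46 ± 0.30 and 9.19 ± 0.12 (SD, n = 6 each), a difference of 0.27 ± 0.12 (SE), or 0.47, 0.37 and -0.03 by slide. A second, dimmer Ddit4 probe differed by 0.07, and the mean of both probes differed by 0.17.

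Zbtb16, which encodes the zinc-finger protein PLZF and responds strongly to glucocorticoids in many tissues, could not be compared. Its probe was flagged good on 0 of 12 arrays and read -1 to 33 intensity units over background on high protein and -3 to 16 on normal protein. Its log2 values of 5.81 to 6.34 over all arrays are therefore only an upper bound.

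**Figure D2:**
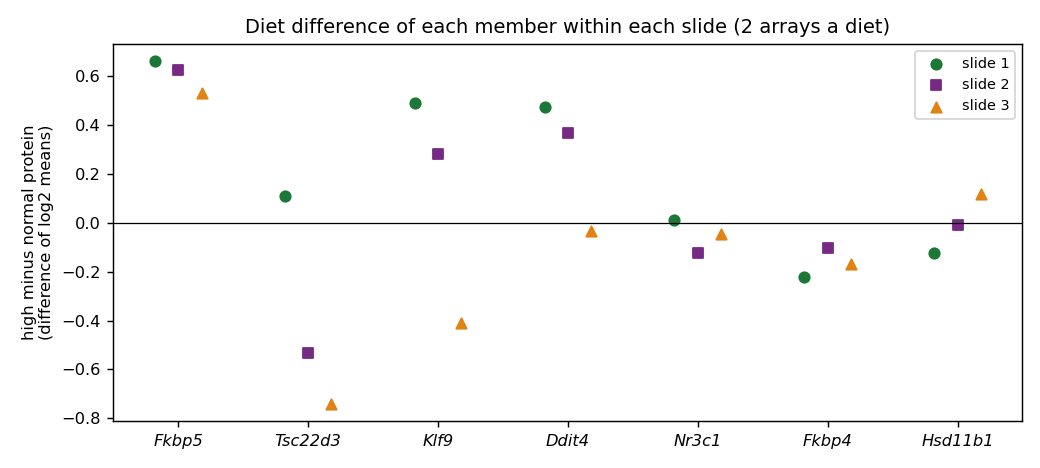
Difference of mean log2 values, high protein minus normal protein, for the 7 tested members within each slide (2 arrays a diet). Fkbp5 is above 0 on all 3 slides by 0.53 to 0.66, Fkbp4 is below 0 on all 3, and the sign of Tsc22d3, Klf9, Ddit4, Nr3c1 and Hsd11b1 differs between slides.

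The wider list of glucocorticoid-induced genes was split evenly around 0 over all 12 arrays. Of 50 listed genes 36 were tested and none passed for diet; 18 differences lay above 0 and 18 below, with a median of 0.01, which is also the median over all tested genes. With median scaling, where the median of all genes was 0.10 and 73.4% of them lay above 0, it was 0.15 and 27 of the 36 lay above 0. Without the 3 arrays of lowest colon position score, described further on, it was 0.12 with 26 of the 36 above 0, and on slide 1 alone it was also 0.12 with 26 above 0. The share over all genes is not given for these last settings, so their counts have no comparison. Sgk1, a kinase gene that controls sodium uptake in the colon, ran from 6.78 to 9.54 on high protein and from 7.79 to 9.38 on normal protein, a difference of -0.04 ± 0.39 (SE). Errfi1, an inhibitor of EGF receptor signalling, differed by -0.04, Cebpd, a transcription factor gene, by 0.31, Nfkbia, which holds NF-kB inactive, by 0.16, and Anxa1, which encodes the anti-inflammatory protein annexin A1, by -0.09. Per1, Dusp1 and Pdk4, textbook early targets, did not reach the signal needed for testing.

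At an unadjusted p under 0.05 the induced list held 5 genes, beside the 6.64% of all genes, and none of them passed the adjusted threshold. They are named here after their values were seen. Besides Fkbp5 they were the metallothionein genes Mt1 and Mt2A, which zinc and other metals also induce and whose differences were 1.43 ± 0.51 and 2.24 ± 0.78 (SE), and, in the other direction, the cell-cycle inhibitor gene Cdkn1c at -0.47 ± 0.12 (SE) and the transglutaminase gene Tgm2 at -0.31 ± 0.11 (SE). Mt2A averaged 12.35 ± 0.75 on high protein and 10.11 ± 2.02 on normal protein (SD, n = 6 each), so its spread within normal protein was nearly as large as the difference. The r with Fkbp5 was -0.41 for Mt1, -0.32 for Mt2A, 0.71 for Cdkn1c and -0.20 for Tgm2 (n = 12 arrays, diet means subtracted).

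The glucocorticoid-repressed list could be read only in part. Of 21 genes 7 were tested, none passed for diet and none had an unadjusted p under 0.05. Of these, 2 differences lay above 0 and the median was -0.15. Il1b, the interleukin-1 beta gene, differed by 0.06, the chemokine genes Ccl2 and Ccl20 by -0.16 and -0.34, and the adhesion molecule genes Icam1 and Vcam1 by -0.10 and -0.25. The other 2 tested genes lay at -0.15 and 0.62. Il6, Tnf, Ptgs2 and Nos2 were among the 14 that did not reach the signal needed for testing.

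In the FKBP family of peptidyl-prolyl isomerases Fkbp5 stood at one end. Of 17 listed genes 13 were tested, none passed for diet, 5 differences lay above 0 and the median was -0.03. Fkbp1a, the main target of the drug FK506, differed by -0.21, its close relative Fkbp1b by -0.03, Fkbp2 of the secretory pathway by -0.10, the nuclear Fkbp3 by -0.03 and Fkbp7 of the endoplasmic reticulum by -0.35. At an unadjusted p under 0.05, beside 6.64% of all genes, there were 2, Fkbp5, whose diet value chose the members, and Fkbp11, and Fkbp11 is named after its value was seen. Fkbp11, an endoplasmic reticulum isomerase abundant in antibody-secreting cells, measured 6.64 to 7.23 with a median of 6.82 on high protein, against 6.96 to 7.84 with a median of 7.46 on normal protein. Of its high-protein arrays 5 lay below every normal-protein array, and the difference was -0.57 ± 0.14 (SE).

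**Figure D3:**
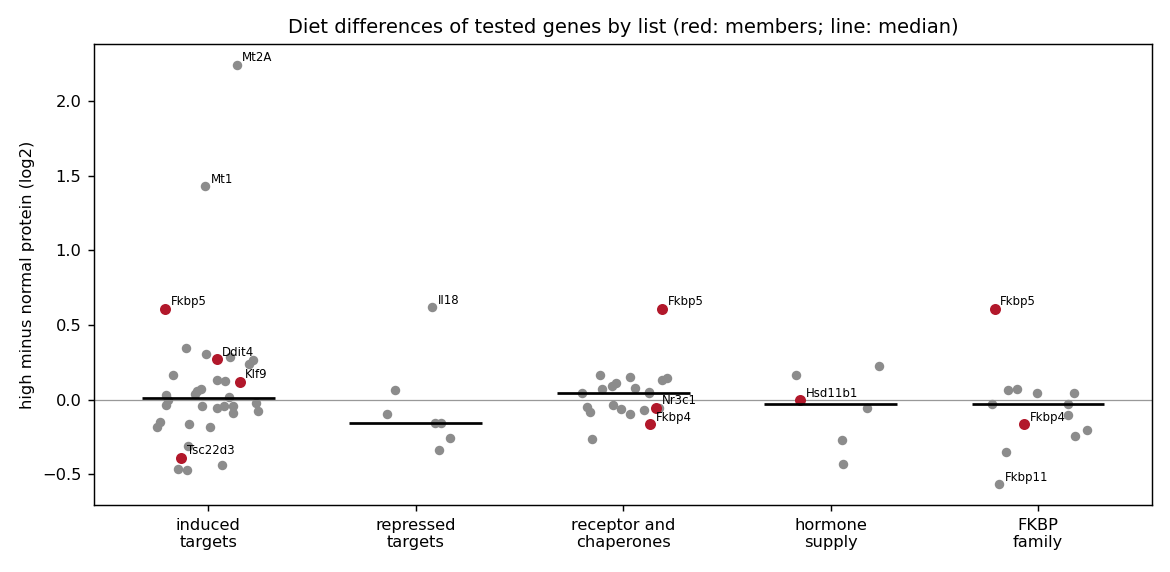
Diet differences (log2, high protein minus normal protein) of the tested genes of 5 lists, with members in red and a line at each list's median. The medians lie between -0.15 and 0.05, Fkbp5 stands at 0.61, and the metallothionein genes Mt1 and Mt2A lie highest at 1.43 and 2.24.

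Whether the other members followed Fkbp5 from array to array was asked with the diet means subtracted, so that the difference that chose Fkbp5 played no part. A limma fit of every other gene on Fkbp5, with diet in the model, gave none of 10450 genes past an adjusted p of 0.05 and 556 genes (5.32%) at an unadjusted p under 0.05. The 6 relations between members were also given Pearson's r and Spearman's rho over 12 arrays with two-sided permutation tests. None of the 6 passed after adjustment over all genes.

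Klf9 had a positive but unsupported relation to Fkbp5, with r = 0.53 (permutation p = 0.097) and rho = 0.51 (p = 0.11), and an adjusted p of 0.87 in limma. It was highest where Fkbp5 was highest, in high-protein replicate 6, and without the 2 arrays farthest from the median of Fkbp5, high-protein replicates 6 and 2, r was 0.09. Those 2 arrays were picked on Fkbp5 values before the diet means were subtracted, and both are of the high-protein diet. Leaving out 1 array at a time gave r of 0.32 to 0.64, and what the relation rests on was not tested. Klf9 had r = 0.62 on high protein (exact permutation p = 0.18, n = 6) and 0.39 on normal protein (exact permutation p = 0.45, n = 6). With the colon position score in the fit r was 0.85 and the adjusted p 0.46, the lowest over its alternatives, whose highest was 0.99998.

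Tsc22d3 had a negative relation to Fkbp5 that did not pass either. Its r was -0.40 (permutation p = 0.25) and its rho -0.52 (p = 0.088), with an adjusted p of 0.87 in limma, and without the same 2 arrays r was -0.82. Within diets r was -0.22 on high protein (exact permutation p = 0.66, n = 6) and -0.82 on normal protein (exact permutation p = 0.035, n = 6). The difference between these 2 values was not tested. With slide as a block it was 0.00.

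Ddit4 had values near 0 over both diets. Its r was 0.17 (permutation p = 0.66) and its rho 0.22 (p = 0.51), with an adjusted p of 0.95 in limma, and r was 0.09 without the 2 farthest arrays. On high protein r was -0.07 (exact permutation p = 0.90, n = 6). On normal protein it was 0.86 (exact permutation p = 0.049, n = 6), and there normal-protein replicate 6 was highest for both genes; without that array the value over both diets was -0.04.

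Nr3c1 had the highest r of the members, at 0.70 (permutation p = 0.011) with rho = 0.59 (p = 0.054). Its adjusted p over all genes was 0.87, and r was 0.75 without the 2 farthest arrays. Within diets r was 0.63 on high protein (exact permutation p = 0.18, n = 6) and 0.83 on normal protein (exact permutation p = 0.071, n = 6). Normal-protein replicate 6 and high-protein replicate 6 were the highest of their diets for both genes. Without normal-protein replicate 6 r over both diets was 0.52, the lowest value when 1 array was left out. The Nr3c1 values span 6.60 to 7.05, on a probe flagged good on 8 of 12 arrays. With slide as a block r was 0.50. With the mean level of B and plasma cell genes in the fit, described further on, r was 0.13. That level itself had r = -0.88 with Fkbp5 and was chosen with it known, so the 0.13 says little about Nr3c1.

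Hsd11b1 and Fkbp4 had negative values that did not pass. For Hsd11b1 r was -0.39 (permutation p = 0.28) and rho -0.36 (p = 0.26), with an adjusted p of 0.87 in limma, and r was -0.04 without the 2 farthest arrays and -0.82 with the colon position score in the fit. Within diets its r was -0.45 on high protein (exact permutation p = 0.38, n = 6) and -0.34 on normal protein (exact permutation p = 0.53, n = 6). For Fkbp4 r was -0.44 (permutation p = 0.18) and rho -0.42 (p = 0.19), with an adjusted p of 0.87 in limma, and r was -0.65 without the 2 farthest arrays. Within diets it was -0.30 on high protein (exact permutation p = 0.55, n = 6) and -0.59 on normal protein (exact permutation p = 0.22, n = 6). Among the other pairs of members, Hsd11b1 and Klf9 had the widest opposition, with r = -0.76 over 12 arrays, which is given as a description.

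**Figure D4:**
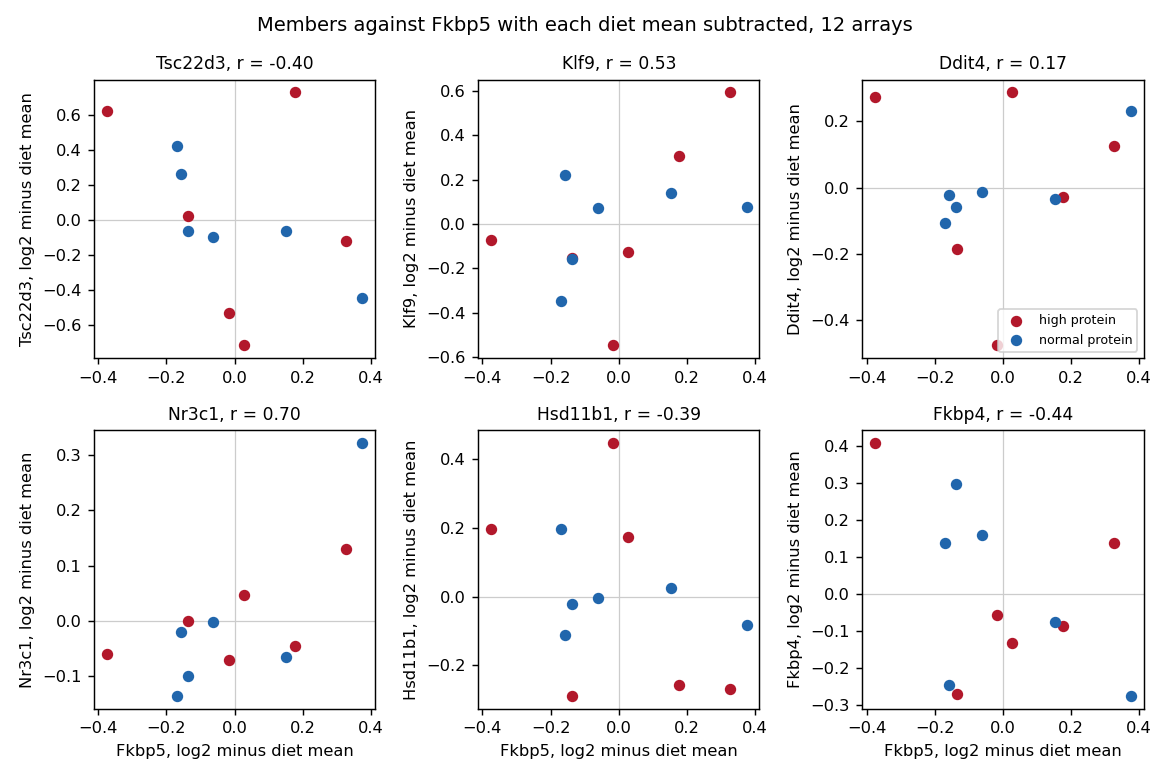
Each tested member against Fkbp5 over 12 arrays, both as log2 values minus the mean of their diet, with Pearson's r in the panel title. Points of Klf9 and Nr3c1 climb to the right with r of 0.53 and 0.70, those of Tsc22d3, Hsd11b1 and Fkbp4 fall with r of -0.40, -0.39 and -0.44, and none passed adjustment over all genes.

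Over the wider lists r with Fkbp5 took both signs. Of the 35 induced targets other than Fkbp5, 14 had a positive r and the median was -0.17, beside 4798 of 10450 genes and a median of -0.04 overall. The 35 values ran from -0.77 to 0.71. At an unadjusted p under 0.05 there were 6 of 35, beside 5.32% of all genes. Among the named targets Nfkbia had r = -0.77, Errfi1 -0.41, Cebpd -0.20, Sgk1 -0.11 and Anxa1 0.60. Hsd11b2 had r = -0.73, whereas the Hsp90 genes Hsp90aa1 and Hsp90ab1 were at 0.08 and -0.09.

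The genes most like Fkbp5 over the 12 arrays, by r of diet-centred values among tested genes with a symbol, were not on the glucocorticoid lists. Hyou1, a chaperone gene of the endoplasmic reticulum, had r = 0.92, Rapgef2, a Rap exchange factor gene, 0.88, Ccnc, which encodes cyclin C, 0.86, Thop1, a peptidase gene, 0.85, and Pdk1, a pyruvate dehydrogenase kinase gene, 0.84. By diet they did not share its direction throughout: Hyou1 averaged 9.14 ± 0.17 on high protein and 9.31 ± 0.12 on normal protein (SD, n = 6 each), and of the other 4 only Thop1 lay higher on high protein, by 0.09. Being the extremes of 10450 values, these r are descriptions.

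Negative r of similar size were found at the opposite end. Among genes with a symbol other than a locus number, the lowest r were those of Tnfrsf17 at -0.90, which encodes the plasma cell survival receptor BCMA, Mzb1 at -0.88, a chaperone gene for antibody assembly, Pou2af1 at -0.88, a B cell transcriptional coactivator gene, Evi2a at -0.86 and Zc3hc1 at -0.84. The lowest r of all 10450 genes, -0.90, belonged to a gene known here by a locus number. In the limma fit 8 genes shared the smallest adjusted p of 0.0695, all with a negative slope. They were Tnfrsf17, Mzb1, Pou2af1 and 5 transcripts known here by accession, of which the array's annotation describes 2 as immunoglobulin-like. None passed 0.05, but 4 genes did with plain background subtraction, 2 with the deposited value table, 8 without normal-protein replicate 4 and 3 without high-protein replicate 3. In the other 23 of 27 alternatives none did. The lowest adjusted p was 0.43 with median scaling, 0.23 without normal-protein replicate 3 and 0.71 without normal-protein replicate 6. With slide as a block it was 0.99996, while r stayed at -0.85 for Tnfrsf17, -0.83 for Mzb1 and -0.82 for Pou2af1.

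Tnfrsf17 measured 6.55 to 8.37 with a median of 7.03 on high protein, against 6.39 to 8.46 with a median of 7.65 on normal protein. Mzb1 measured 6.28 to 7.81 with a median of 6.63 on high protein, against 6.26 to 8.10 with a median of 7.50 on normal protein. Pou2af1 measured 7.46 to 9.60 with a median of 7.95 on high protein, against 6.998 to 9.35 with a median of 8.94 on normal protein. None of the 3 genes had a probe flagged good on all 12 arrays, so their lowest values may be close to background. Among genes flagged good on all 12 arrays, the lowest adjusted p for the slope in limma was 0.26. In all 3 genes the array with the highest value of its diet on high protein was replicate 1, where Fkbp5 was lowest, and the lowest on normal protein was replicate 6, where Fkbp5 was highest. Tnfrsf17 had an r with Fkbp5 of -0.96 within high protein and -0.86 within normal protein, and Mzb1 had -0.91 and -0.88 (n = 6 each).

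**Figure D5:**
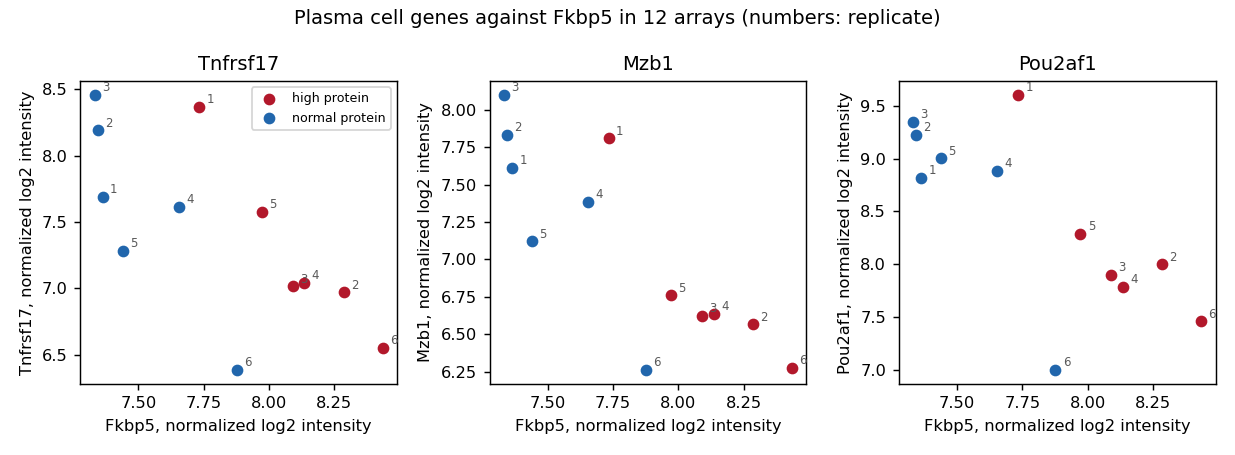
Normalized log2 intensity of Tnfrsf17, Mzb1 and Pou2af1 against that of Fkbp5 on the 12 arrays, high protein in red and normal protein in blue, with replicate numbers. In both diets the arrays run from upper left to lower right, and high-protein replicate 1 and normal-protein replicate 6 lie at the ends nearest the other diet.

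A list of 16 B and plasma cell genes was then written, after these values were seen, and gets no test. Of its 12 tested genes 11 had a negative r with Fkbp5 and 12 had a diet difference below 0, with a median of -0.28, beside 5652 of 10450 and 5071 of 10451 over all genes. The exception was Xbp1, with r = 0.41. The r of Sdc1, Sec11c, Ssr4 and Cd38 lay between -0.41 and -0.19, so the list did not move as one. Their mean level ran from 7.99 to 8.75 on high protein and from 8.03 to 8.87 on normal protein, and its r with Fkbp5 was -0.88 over 12 arrays with diet means subtracted. The B cell markers Cd79a, Cd79b and Ms4a1 did not reach the signal needed for testing. The list holds the genes of lowest r with Fkbp5, so that r and any shift of the Fkbp5 difference with this level in the fit follow largely from the choice. The r of a member with Fkbp5 in that fit says little either, since the level takes up much of the Fkbp5 spread. With it in the fit the Fkbp5 diet difference was 0.38 in place of 0.61, that of Tsc22d3 was -0.11 in place of -0.39 and that of Klf9 was 0.00 in place of 0.12. In such bulk samples fewer cells of a type and less RNA per cell cannot be told apart, and the part of this cell type in the Fkbp5 values was not tested.

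The labelled tissue was checked against markers of the cells it could hold. All 10 epithelial markers were tested, Epcam, Cdh1, Krt8, Krt18 and Krt19 among them, and their mean level ran from 11.93 to 12.59 on high protein and from 11.95 to 12.68 on normal protein. Markers of other cells also passed the signal filter. For smooth muscle 9 of 10 did, Acta2, Myh11, Tagln, Des and Cnn1 among them. Their mean level ran from 10.44 to 11.46 on high protein and from 11.18 to 11.77 on normal protein. For fibroblasts 9 of 10 did, including Col1a1, Col1a2, Col3a1, Dcn and Lum. All 10 macrophage markers were tested, and 9 of their differences lay below 0, as did 9 of 9 for smooth muscle and 7 of 9 for fibroblasts, beside 5071 of all 10451 genes. The macrophage markers had Csf1r at -0.38, Cd68 at -0.33, Cd14 at 0.30, Itgam at -0.36 and Cd163 at -0.16. The samples labelled epithelium thus also carried transcripts that mark muscle and stroma. Of the members, Fkbp4 had r = 0.76 with the mean fibroblast level and Hsd11b1 0.62 with the macrophage level (n = 12, diet means subtracted), and the part of fibroblasts in the diet values was not tested. With the macrophage level in the fit the diet difference was 0.11 in place of -0.01 for Hsd11b1, 0.01 in place of 0.12 for Klf9, -0.11 in place of -0.17 for Fkbp4 and 0.53 in place of 0.61 for Fkbp5. With the smooth muscle level in the fit it was -0.25 in place of -0.39 for Tsc22d3, -0.08 in place of -0.17 for Fkbp4 and 0.58 in place of 0.61 for Fkbp5.

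The arrays also differed in the genes that mark position along the colon. Hoxb13, a homeobox gene of the distal colon, ran from 6.12 to 12.56 on high protein and from 5.83 to 12.05 on normal protein, and Hoxb6 and Hoxb7, which are expressed more proximally, ran from 7.05 to 10.88 and 6.59 to 10.81 on high protein and from 6.51 to 10.95 and 6.38 to 10.29 on normal protein. A position score, the Hoxb13 value less the averaged Hoxb6 and Hoxb7 values, was lowest in high-protein replicates 3 and 4, at -4.72 and -3.15, and normal-protein replicate 6, at -4.44, and reached 5.57 on high protein and 5.42 on normal protein. Tsc22d3 measured 8.44, 8.26 and 8.92 on those 3 arrays, against 8.86 to 9.79 on the rest. Without them its diet difference was -0.16 in place of -0.39, that of Klf9 was 0.30 in place of 0.12 and that of Fkbp5 was 0.68 in place of 0.61. With the score in the fit the Tsc22d3 difference was -0.45 and that of Fkbp5 0.62.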

How the data were processed

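Total RNA of 12 samples was measured on single-colour Agilent whole rat genome arrays. Per the file headers, GenePix Pro 6.1.0.4 read the spots, as linear intensities without normalization in the deposited files, with deposited flags for good spots (100) and spots not found (-50). The series' value table was deposited as log2 values. The submitters' processing notes name RMA without a version, and the sources used here give neither its background step nor its centring. Its column medians ran from 4.36 to 4.45. As given, its IDs correlated with the scanner values at 0.002 to 0.018, and moved by 1 row at 0.993 to 0.998, so it was used only as an alternative with the IDs moved.

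Mean pixels were corrected against the median local background with normexp (offset 50) and quantile normalized on the log2 scale, and spots of a probe were averaged after leaving out controls. Testing required that a share of 0.5 or more of a probe's spots carried the good flag on 6 or more of 12 arrays, and a gene was read by its brightest tested probe. Names came from RefSeq accessions (18355 of 26038 probes matched) or the array's own gene name. limma 3.58.1 in R 4.3.3 (lmFit, eBayes) tested diet and the slope on Fkbp5 with Benjamini-Hochberg adjustment over all genes and a threshold of 0.05; both fits were tested on simulated data. Relations with Fkbp5 used 100000 permutations, or all 720 pairings within a diet. The number of arrays limits the precision.

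The members and lists were chosen with earlier results of these data known. Genes named were the 8 members, the colon position genes, the first 5 tested non-members of each list, genes past the threshold, and, among genes with a symbol other than a locus number, the 5 of highest and the 5 of lowest r with Fkbp5; other names are said to be chosen after their values were seen. Alternatives covered scaling, background, filter, probe choice, the value table, slide and replicate blocks, marker scores and leaving out arrays.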

Additional observations from a re-analysis of the deposited data

Results flagged for a closer look

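Normal-protein replicate 6 stood apart from the other 5 arrays of its diet in 2 members. For Ddit4 it measured 9.42, and its gap to the next array was 0.728 of the diet's whole range. For Nr3c1 it measured 7.05, with a gap of 0.707 of the range. Both shares exceed the critical value of Dixon's test for 6 arrays. Chance flags about 1 in 20 groups, and 14 groups of members were tested. The same array was the highest of its diet for Fkbp5, at 7.88, with a gap of 0.410 of the range, and the lowest for Tsc22d3, at 8.92. Its colon position score was -4.44 and its mean level of B and plasma cell genes was 8.03, both the lowest of its diet, and their part in these values was not tested.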

How the results depend on the processing

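The Fkbp5 diet difference ran from 0.38 with the B and plasma cell level in the fit to 0.87 with the value table, and leaving out 1 array at a time gave 0.54 to 0.68. These values chose the gene, and the filters, the mean of probes and the blocks cannot move them. The B and plasma cell level and the exclusion of the 3 arrays of lowest position score were added after seeing the data. Slide 1 alone gave 0.11 for Tsc22d3 and 0.49 for Klf9, and slide 3 alone gave -0.41 for Klf9, -0.034 for Ddit4 and 1 gene past the threshold for diet. Plain background subtraction gave -0.20 for Nr3c1. The induced list's median was 0.15 with median scaling, beside 0.10 over all genes. Leaving out 1 array at a time gave -0.53 to -0.24 for Tsc22d3, 0.00 to 0.23 for Klf9, 0.21 to 0.36 for Ddit4 and -0.08 to 0.01 for Nr3c1. The number of genes past the threshold for the slope on Fkbp5 was 4 with plain background subtraction (Mzb1, Tnfrsf17 and 2 accessions) and 2 with the value table (Mzb1 and Tnfrsf17), and 0 to 8 when 1 array was left out. In those 2 settings the adjusted p in limma was 0.036 for both genes, then 0.018 for Tnfrsf17 and 0.034 for Mzb1, and over all alternatives it ran from 0.018 to 0.99997 for Tnfrsf17 and from 0.034 to 0.99997 for Mzb1.

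The r with Fkbp5 changed sign for Fkbp4 with median scaling (0.12), for Tsc22d3 (0.0046) and Ddit4 (-0.12) with slide as a block, for Tsc22d3 (0.19) and Fkbp4 (0.029) with the B and plasma cell level in the fit, and for Ddit4 without the 3 arrays of lowest position score (-0.16) and without normal-protein replicate 6 (-0.045). The changes with the B and plasma cell level follow a list that holds the genes of lowest r with Fkbp5, and they say little about the members. The cause of the other changes was not tested. Same-numbered arrays correlated at 0.40, 0.32, -0.10, 0.24, -0.03 and -0.11 for numbers 1 to 6, and for 3 of the 6 numbers the high-protein array correlated best with its own number. The labels give no shared source, and not every value was over 0.1, so the numbers were not taken as pairs. The replicate block leaves every diet difference as it is by construction, such as 0.61 for Fkbp5, and gave 0 genes past the threshold for diet. Under it r with Fkbp5 was -0.12 for Nr3c1, -0.55 for Ddit4, 0.051 for Fkbp4 and 0.0049 for Klf9, in place of 0.53 for Klf9. Low signal over background limits Nr3c1 and leaves Zbtb16 unread.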
